A study of Mus musculus with 8 samples.

Results

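Molecular chaperones and immunophilins were followed in whole-brain RNA of mice without the RNA editing enzyme ADAR2. The genes were chosen by their platform symbol: the heat shock proteins (Hspa, Hspb, Hspd, Hspe, Hsph and Hsp90), the DnaJ proteins, the Cct subunits, the Fkbp and Bag genes and the cyclophilins Ppia to Ppih. The rule found 77 genes on 123 spots, out of 8653 named genes on 12131 spots. Of these, 73 genes (116 spots) had a value on all 8 arrays and were tested. Dnajc14, Dnajc17, Dnajc28 and Hspb3 had no such spot and stay without a value. The tested RNA came from 4 male mutants, 19 weeks old, of the genotype ADAR-/-/GluR-BR/R. They lack ADAR2, the adenosine deaminase encoded by Adarb1, and carry alleles of the AMPA receptor subunit GluR-B (Gria2) that encode the arginine form which editing otherwise produces. All of it was compared with a single pool of wildtype brain RNA, taken from males of that age. By the sample labels the pool held 4 mice, but the protocol for labelling counts 6 control animals. Every mutant was hybridised on 2 two-colour cDNA arrays with the dyes exchanged, so that the mouse was the replicate (n = 4). Each tested gene is therefore measured against a single control RNA, and the spread between wildtype mice is left out.

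Chaperones bind unfolded or partly folded proteins and keep them from aggregating. Hsp70 proteins do so in cycles of ATP binding and hydrolysis, which DnaJ proteins start and nucleotide exchange factors such as Hsp110 and BAG proteins end, and Hsp90 takes over clients such as steroid receptors and kinases. The chaperonins are closed chambers, CCT in the cytosol for actin and tubulin and Hspd1 with its lid Hspe1 in mitochondria. FKBPs and cyclophilins are peptidyl-prolyl isomerases, and their best known members are the receptors of the immunosuppressants tacrolimus and cyclosporin, abundant in neurons. In brain, chaperones are known for their part in synaptic vesicle cycling and in the handling of aggregation-prone proteins.

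The deposited values are log2 ratios of the channels. Per the labels, the dye of each RNA is known and the numerator is not. From each array its median was subtracted, so a value of 0 is that of the median spot. Results are given for 2 quantities. The mean ratio averages the 2 arrays of a mouse, and it compares mutant and pool where every array was turned to the same RNA as numerator. Where the ratios are Cy5 over Cy3, mutant and pool change places between the 2 arrays, and the mean ratio is an effect of the dye. The swap component takes a mouse's array with the mutant in Cy5, subtracts its array with the mutant in Cy3 and divides by 2. Where the ratios are Cy5 over Cy3 this is mutant over pool, and where every array was turned alike it is an effect of the dye. A sign here is the deposited one, so whether a gene was higher in mutant or in wildtype brain is not settled. Each quantity was tested with limma (moderated SE over 4 mice, Benjamini-Hochberg over 8107 named genes, threshold 0.05). Gene names rest on a shift of 11 spots between the platform annotation and the values, which was found in the data.

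Adarb1, the disrupted gene, served as the check of the labels. Its spot 18422 had, in mice 1 to 4, -1.25, -0.93, 0.12 and -0.07 with the mutant in Cy5, and 1.97, 1.98, 1.96 and 1.82 with the mutant in Cy3. The orientations did not overlap, the swap component was -1.23 ± 0.163 (SE) and the mean ratio 0.70 ± 0.165 (adjusted p = 0.0383 and 0.0226). Spot 18759 had a swap component of -1.33 ± 0.267 (adjusted p = 0.0424), with orientations that overlapped through mouse 1, and a mean ratio of 0.26 ± 0.409 (0.653). Spot 14946 passed in neither, at -0.10 ± 0.127 and 0.12 ± 0.171 (adjusted p = 0.628 and 0.621). Which part of the transcript each spot covers was not among the sources used. Where the ratios are Cy5 over Cy3, a transcript lost in the mutant has a negative swap component. Where every array was turned alike, its mean ratio is positive with the pool as numerator and negative with the mutant. Spot 18422 passed in both quantities and spot 18759 in the swap component, so the check left the numerator open. The table holds no intensities, so brain markers could be followed as ratios only and not as levels. Of the marker genes measured, 3 of 4 for neurons, 4 of 6 for astrocytes and 2 of 4 for oligodendrocytes had a mean ratio past the threshold, all positive. Over all 8107 genes, 20.6% were positive and 12.4% negative past it. Of 4 blood markers 1 was positive and 3 negative, and of 4 microglial markers 1 was positive and 2 negative. The 1 marker of choroid plexus, Ttr, stood at 0.87, and of 2 endothelial markers Cdh5 passed at 0.82. The part of cell composition in the chaperone values was not tested, and in whole tissue fewer cells of a type and less RNA per cell cannot be told apart.

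Among the 73 chaperone and immunophilin genes, 22 had a positive and 7 a negative mean ratio past the threshold. That is 30.1% and 9.59% of them, beside 20.6% and 12.4% of all 8107 genes (33.0% in either sign). Their median mean ratio was 0.17, against 0.02 over all genes, and the range ran from -1.76 for Cct8l1 to 1.26 for Fkbp1a. On all 8 arrays 17 genes (23.3%) lay above the array median and 5 (6.85%) below it, beside 13.2% and 7.66% of all genes. The split between signs depended on the centring: with the deposited medians left in, 17 genes were positive and 14 negative, and over all genes 1122 and 1550, with a median of all genes of -0.14. On the Cy5 side alone (4 arrays), limma put 0 of the 73 and 0 of all 8107 genes past the threshold (19 of the 73 at an unadjusted p below 0.05, as were 24.7% of all genes). On the Cy3 side alone it put 26 positive and 7 negative genes there, beside 33.7% of all genes in either sign.

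The values differed between the dye orientations, and mostly one way. In 28 of the 73 genes (38.4%) all 4 arrays with the mutant in Cy5 lay below all 4 with the mutant in Cy3, as in 17.7% of all genes. The opposite held for 3 genes (4.11%, against 4.07% of all genes): Dnajb13, Dnajc5b and Hspa12b. The swap component was below 0 in 52 genes (71.2%, against 58.1%), and it was past the threshold in 12 on that side (16.4%, against 7.94%) and in 1 on the other, Dnajc5b (1.37%, against 1.37%), while 9.31% of all genes passed in either sign. The same 12 genes were also past the threshold with a positive mean ratio (16.4%, against 6.90% of all genes): Cct2, Cct7, Dnajb4, Fkbp1a, Fkbp3, Fkbp8, Hsp90b1, Hspa5, Hspd1, Hspe1, Ppia and Ppib. Both quantities use the same 8 arrays, and those with the mutant in Cy3 spread wider, so these are not 2 separate results. All 22 genes positive in the mean ratio had a swap component below 0. Without mouse 1, 2, 3 or 4, limma put 0 of all 8107 genes past the threshold of the swap component, so that 3 mice say nothing about which of these calls hold. At an unadjusted p below 0.05 stood 24, 30, 32 and 33 of the 73 genes (24.1%, 22.8%, 26.4% and 29.5% of all genes). With all arrays scaled to one spread, limma likewise put 0 of the 73 and 0 of all genes there (18 of the 73 unadjusted, against 21.9% of all genes). It put 2 of the 73 there with the deposited medians left in (3.53% of all genes) and 4 with runs of 48 spots centred (4.88%). The spread of the orientation averages over the 73 genes was 0.459 (SD) with the mutant in Cy5 and 0.853 with the mutant in Cy3, beside 0.465 and 0.817 over all genes. Across the 73 genes the averages of the orientations correlated with Pearson's r = 0.669 (Spearman's rho = 0.591), and across all genes with 0.537 (0.549), a description over genes that share mice, pool and arrays.

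**Figure D1:**
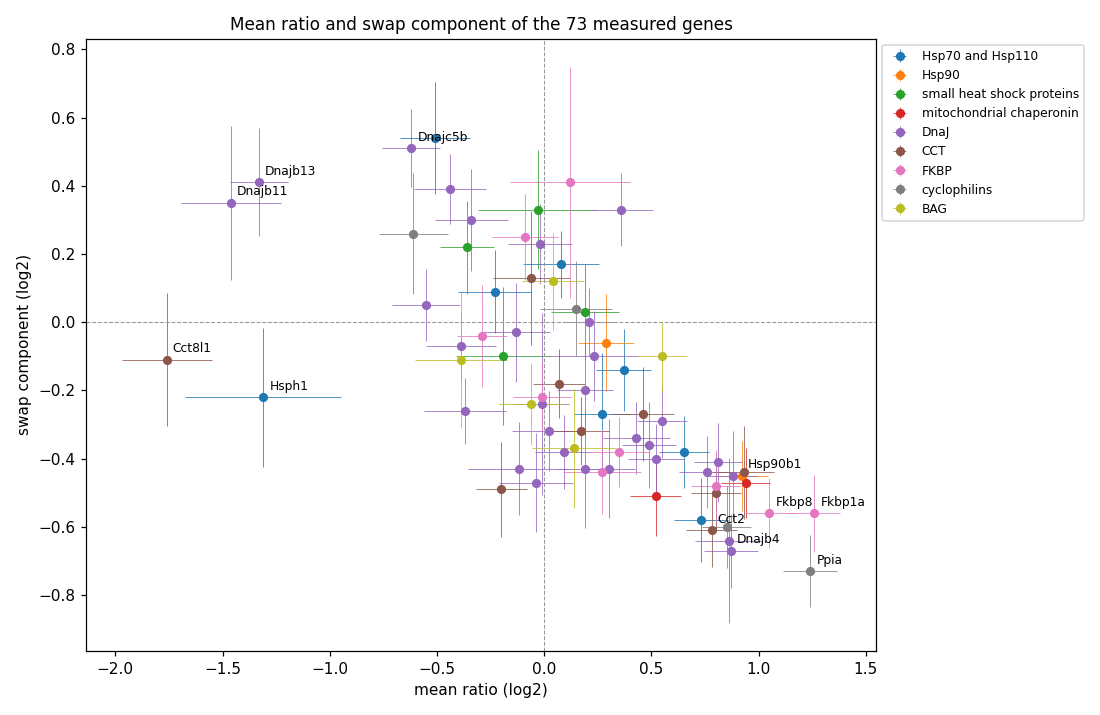
Mean ratio (horizontal axis, log2) and swap component (vertical axis, log2) of the 73 measured genes, coloured by family, with bars of 1 moderated SE. Genes with the largest positive mean ratio, such as Ppia and Fkbp1a, lie at the lower right with a negative swap component, while Dnajb13, Dnajb11 and Dnajc5b lie at the upper left and Cct8l1 and Hsph1 at the left near 0. Both axes are computed from the same arrays.

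**Figure D2:**
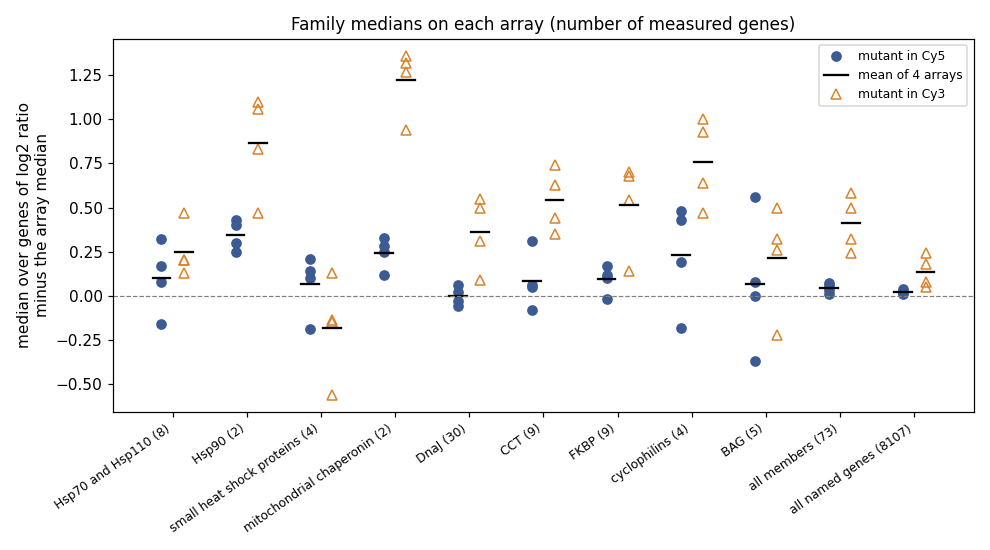
Median over the genes of each family on each array (log2 ratio minus the array median), with the number of measured genes in brackets. Filled circles are arrays with the mutant in Cy5, open triangles those with the mutant in Cy3, and bars the mean of 4 arrays; the mitochondrial chaperonin pair lay at 0.12 to 0.33 and 0.94 to 1.36, and the small heat shock proteins and BAG genes show circles and triangles mixed.

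Medians of most families were lower with the mutant in Cy5, and those of the small heat shock proteins were not. For the mitochondrial chaperonin they ran from 0.12 to 0.33 over the arrays with the mutant in Cy5 and from 0.94 to 1.36 over those with the mutant in Cy3. The CCT genes had -0.08 to 0.31 and 0.35 to 0.74, and the DnaJ genes -0.06 to 0.06 and 0.09 to 0.55. The Hsp90 pair had 0.25 to 0.43 and 0.47 to 1.10. In these 4 families the orientations did not overlap. The FKBP genes had -0.02 to 0.17 and 0.14 to 0.70, the cyclophilins -0.18 to 0.48 and 0.47 to 1.0, and the Hsp70 and Hsp110 genes -0.16 to 0.32 and 0.13 to 0.47, each with an overlap. Small heat shock proteins (-0.19 to 0.21 and -0.56 to 0.13) and BAG genes (-0.37 to 0.56 and -0.22 to 0.50) overlapped widely. All named genes together had 0.01 to 0.04 and 0.05 to 0.24. A family of 2 genes, as the mitochondrial chaperonin or Hsp90, has a median of only those 2, and no test was made of a family.

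Of the 8 Hsp70 and Hsp110 genes, Hspa5 and Hspa9 were positive and Hsph1 negative in the mean ratio, and 5 did not pass. Over all genes, 20.6% were positive and 12.4% negative. Hspa5 encodes BiP, the Hsp70 of the endoplasmic reticulum, which is induced when unfolded proteins gather there. It had 0.01, 0.26, -0.04 and 0.35 with the mutant in Cy5, and 1.58, 1.57, 1.19 and 0.90 with the mutant in Cy3. All 4 values of the first set lay below all of the second, giving 0.73 ± 0.125 in the mean ratio and -0.58 ± 0.123 in the swap component (adjusted p = 0.0089 and 0.0415). Hspa9, the Hsp70 of mitochondria, averaged 0.65 ± 0.117 in the mean ratio (adjusted p = 0.00998), and 3 of its 4 spots passed on their own (0.67 to 0.92), while the fourth stood at 0.10. Hsph1, the Hsp110 that recharges Hsp70 with ATP, had -2.21, -2.73, -0.78 and -0.41 with the mutant in Cy5 and -2.67, -0.97, -0.05 and -0.70 with the mutant in Cy3. It was below 0 on every array but uneven between mice, at -1.31 ± 0.364 (adjusted p = 0.0376), and it missed the threshold without mouse 1 (-0.94), mouse 2 (-1.14) or mouse 4 (-1.57). Centring runs of 48 spots gave it -0.96 (adjusted p = 0.141).

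Hspa1a, the Hsp70 that heat and other stress induce most strongly, had -0.63, -0.12, -0.06 and 0.78 with the mutant in Cy5, and 1.03, 0.40, 0.44 and 0.30 with the mutant in Cy3. The orientations overlapped, and neither the mean ratio (0.27 ± 0.129, adjusted p = 0.158) nor the swap component (-0.27 ± 0.181, 0.342) passed. A cDNA probe of Hspa1a cannot be told apart from its near-identical copy Hspa1b, which was not analysed here. Hspa4, another Hsp110 relative, was read by 3 spots that disagreed: 1.02 ± 0.255 (adjusted p = 0.0272), 0.22 and -0.11, with a gene mean of 0.37 that missed the threshold and passed it with runs centred (0.64) or without spots that hold values at ratios of small whole numbers (0.62). The 3 spots of Hspa14, a ribosome-associated Hsp70, had mean ratios of 0.59, -0.15 and -0.20, and 1 of them a swap component past the threshold (0.67, adjusted p = 0.0396). Hspa12b and Hspa1l stood at -0.51 and -0.23 without passing.

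Hsp90b1, the Hsp90 of the endoplasmic reticulum (GRP94), was above the array median on every array. It had 0.29, 0.52, 0.66 and 0.39 with the mutant in Cy5, and 1.27, 1.67, 1.34 and 1.22 with the mutant in Cy3, with no overlap. Its mean ratio was 0.92 ± 0.124 (adjusted p = 0.00536) and its swap component -0.45 ± 0.103 (0.0477). Hsp90aa1, the stress-inducible cytosolic Hsp90, did not pass as a gene (0.29 ± 0.131, adjusted p = 0.137), since its spots disagreed. One stood at 0.95 ± 0.127 (adjusted p = 0.0061) and the other at -0.37 ± 0.168 (0.134). The spot at -0.37 held 1 value that, less a constant of its array, lay within 0.001 (log2) of a ratio of whole numbers up to 10. Such a value is here called a whole-number ratio. Without such spots the gene passed at 0.95, and with runs of 48 spots centred at 0.68.

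The promoters of Hspa5 and Hsp90b1 share an element that the choice of genes did not use. The ER stress element, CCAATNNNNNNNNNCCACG on either strand, is known as the site through which unfolded proteins activate their transcription. It was searched from 250 bases before to 50 after each start in RefSeq (GRCm38.p6). Of the 66 chaperone and immunophilin genes with such a window 3 held it (4.55%), namely Hspa5, Hsp90b1 and Dnajc3, beside 0.137% of 27025 genes. Other genes of the endoplasmic reticulum did not hold it, among them Ppib (positive, mean ratio 0.85) and Dnajb11 (negative, -1.46). Nor did Dnajc1, Dnajc10, Fkbp2, Fkbp9, Fkbp11 and Fkbp14, none past the threshold of the mean ratio. The windows of the 2 positive holders are shown with the element in capitals. That of Hspa5 is from chr2:34771840-34772139 on the plus strand. That of Hsp90b1, with 2 elements of opposite strand, is from chr10:86705395-86705694 on the minus strand.
Hspa5: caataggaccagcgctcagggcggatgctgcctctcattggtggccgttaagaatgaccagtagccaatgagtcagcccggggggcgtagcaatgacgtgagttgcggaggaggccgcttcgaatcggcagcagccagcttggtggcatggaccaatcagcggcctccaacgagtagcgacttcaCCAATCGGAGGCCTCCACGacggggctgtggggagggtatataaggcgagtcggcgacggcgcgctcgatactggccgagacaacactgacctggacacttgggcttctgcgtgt
Hsp90b1: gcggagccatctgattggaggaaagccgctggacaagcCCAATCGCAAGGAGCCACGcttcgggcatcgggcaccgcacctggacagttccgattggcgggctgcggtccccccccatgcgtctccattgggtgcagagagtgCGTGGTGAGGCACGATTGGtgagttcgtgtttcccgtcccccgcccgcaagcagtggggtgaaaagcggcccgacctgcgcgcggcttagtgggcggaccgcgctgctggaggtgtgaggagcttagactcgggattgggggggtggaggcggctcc
Dnajc3, a co-chaperone of BiP that also inhibits the kinase PERK, had the element too and a mean ratio of -0.01 ± 0.128, with its 2 spots at 0.20 and -0.22. The spot at -0.22 ran from -2.58 to 1.62 with the mutant in Cy5 and from -1.44 to 1.14 with the mutant in Cy3. It held 2 whole-number ratios, and its arrays of each mouse had opposite signs, a spread that the SE of the mean ratio does not show. A match of letters is a description and shows no binding.

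Dnajb11, the main DnaJ partner of BiP, stood at the opposite end from BiP. It had -0.43, -1.39, -1.23 and -1.42 with the mutant in Cy5, and -1.83, -0.47, -1.82 and -3.11 with the mutant in Cy3. Every array was below 0, with a mean ratio of -1.46 ± 0.234 (adjusted p = 0.00745) and overlapping orientations. Both Dnajb11 and Hspa5 rest on 1 spot. Dnajc1 and Dnajc10, also DnaJ proteins of the endoplasmic reticulum, had -0.12 and 0.43 and did not pass. Of 21 further genes of folding and the unfolded protein response in that compartment, 6 were positive and 0 negative past the threshold, beside 20.6% and 12.4% of all genes. Their median was 0.11 (0.02 over all genes). Calr, the lectin chaperone calreticulin, stood at 0.89 ± 0.119 and Manf, a secreted factor induced by ER stress, at 0.78 ± 0.116 (adjusted p = 0.00535 and 0.00641).

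The small heat shock proteins, which hold unfolded proteins without ATP, had no gene past either threshold among the 4 measured. Over all genes, 33.0% passed in the mean ratio and 9.31% in the swap component. Hspb1 had -0.16, 0.40, 0.57 and 0.40 with the mutant in Cy5, and -1.84, -0.35, 0.94 and -0.18 with the mutant in Cy3, which overlap. Its mean ratio was -0.03 ± 0.277 (adjusted p = 0.946). Hspb7, best known from heart, had -0.36 ± 0.125 (adjusted p = 0.0719), and with the deposited medians left in it passed at -0.52 (0.0222). Hspb2 and Hspb8 stood at -0.19 and 0.19. Their relative Cryab, alpha-B crystallin, abundant in oligodendrocytes, had 0.49 ± 0.131 (adjusted p = 0.034). It belonged to a list of other stress proteins of which 3 of 10 measured genes were positive and 0 negative, beside 20.6% and 12.4% of all genes. The others were Clu, the extracellular chaperone clusterin (1.03 ± 0.115), and Sqstm1, the autophagy receptor p62 (1.01 ± 0.114), both with an adjusted p of 0.00487. In the swap component 2 genes of the list were negative, Clu and Sqstm1, and 2 positive, the oxidative stress factor Nfe2l2 (0.58, adjusted p = 0.0376) and Cryba1 (0.84, 0.0477). Over all genes, 7.94% were negative and 1.37% positive there.

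Both genes of the mitochondrial chaperonin were positive in the mean ratio, beside 20.6% of all genes. Hspe1, the lid, had 0.48, 0.31, 0.61 and 0.51 with the mutant in Cy5, and 1.44, 1.51, 1.44 and 1.27 with the mutant in Cy3. Hspd1, the chamber, had 0.02, -0.07, -0.05 and 0.15 with the mutant in Cy5, and 1.28, 1.13, 1.11 and 0.62 with the mutant in Cy3. Neither gene's orientations overlapped, and the step between them was alike. The mean ratios were 0.94 ± 0.114 for Hspe1 and 0.52 ± 0.118 for Hspd1 (adjusted p = 0.00487 and 0.0198), and the swap components -0.47 ± 0.103 and -0.51 ± 0.116 (0.0449 and 0.048). Hspd1 missed the threshold of the mean ratio without mouse 1 (0.48), mouse 2 (0.52) or mouse 3 (0.52), with the deposited medians left in (0.36) or with equal spread (0.41), and 1 of its 2 spots passed (0.83, against 0.22 for the other).

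Hspd1 and Hspe1 are transcribed away from each other from one stretch of chromosome 1. RefSeq gives Hspd1 2 starts, and the window of the other, chr1:55088194-55088493 on the minus strand, held none of the heat shock elements searched. Of the 300 bases in the window shown and in that of Hspe1, 285 are the same DNA read on opposite strands. The stretch holds a heat shock element of 3 units, GAANNTTCNNGAA or TTCNNGAANNTTC on either strand, the site of heat shock factors. In the window of Hspd1, chr1:55087883-55088182 on the minus strand, it is made of 2 overlapping matches, in capitals, and lies at bases -144 to -127, counted from the start base as 0. From the start of Hspe1 the same letters lie at -89 to -72.
Hspd1: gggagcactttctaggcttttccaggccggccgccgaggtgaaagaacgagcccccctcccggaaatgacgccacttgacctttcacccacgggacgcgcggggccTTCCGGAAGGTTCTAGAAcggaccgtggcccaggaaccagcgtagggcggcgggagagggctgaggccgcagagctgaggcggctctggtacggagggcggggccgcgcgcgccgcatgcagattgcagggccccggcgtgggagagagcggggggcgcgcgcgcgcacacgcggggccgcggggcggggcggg
The element stood in 4 of the 66 chaperone and immunophilin genes with a window (6.06%), beside 0.662% of 27025 genes. The other holders were Hsph1 and Dnajb6, whose windows are shown because their values differ from those of the chaperonin pair (chr5:149636266-149636565 on the minus strand and chr5:29735648-29735947 on the plus strand, each 1 of several starts, with the element at 15 to 27 and at -46 to -34).
Hsph1: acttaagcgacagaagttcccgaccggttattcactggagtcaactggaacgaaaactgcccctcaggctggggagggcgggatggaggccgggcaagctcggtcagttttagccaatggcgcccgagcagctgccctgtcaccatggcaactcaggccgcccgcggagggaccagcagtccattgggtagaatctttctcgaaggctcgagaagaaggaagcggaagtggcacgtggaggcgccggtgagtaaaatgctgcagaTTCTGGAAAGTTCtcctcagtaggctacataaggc
Dnajb6: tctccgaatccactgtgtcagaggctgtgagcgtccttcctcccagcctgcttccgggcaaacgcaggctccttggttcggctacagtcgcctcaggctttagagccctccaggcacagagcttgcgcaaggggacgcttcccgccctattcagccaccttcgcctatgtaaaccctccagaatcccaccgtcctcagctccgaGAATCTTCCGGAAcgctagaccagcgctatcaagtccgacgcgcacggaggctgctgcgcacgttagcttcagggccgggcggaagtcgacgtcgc
The 4 genes with the element had mean ratios of 0.94 (Hspe1), 0.52 (Hspd1), 0.21 (Dnajb6, not past the threshold) and -1.31 (Hsph1). A shorter form with 2 units, GAANNTTC or TTCNNGAA, was found in 30.3% of these genes and 17.0% of all. No match says only that the letters are not in the window.

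Of 14 measured genes of mitochondrial import and proteolysis, 3 were positive and 1 negative, near the 20.6% and 12.4% of all genes. Trap1, the mitochondrial Hsp90, had 0.54 ± 0.138 (adjusted p = 0.0294), and Clpx, which unfolds proteins for the ClpP protease, had -1.34 ± 0.134 (0.00487). Dnajc19, a DnaJ protein of the inner membrane, was positive at 0.55 ± 0.117 (adjusted p = 0.0159). It missed the threshold without mouse 2 (0.54) or mouse 3 (0.52). Dnaja3, which works with Hspa9 in the matrix, stood at -0.04 and Dnajc15 at -0.39, neither past it.

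The DnaJ proteins, which bring clients to Hsp70 and trigger its ATP hydrolysis, were the largest family. Of 30 genes, 8 were positive, 4 negative and 18 neither, beside 20.6% positive and 12.4% negative of all genes. Dnaja1, a general cytosolic partner of Hsp70, had 0.37, 0.54, 0.06 and 0.74 with the mutant in Cy5, and 1.37, 1.18, 1.63 and 1.14 with the mutant in Cy3. It lay above the median on every array with no overlap of orientations, at 0.88 ± 0.113 (adjusted p = 0.00509). Dnajb4 had 0.21, -0.03, 0.60 and 0.04 with the mutant in Cy5, and 1.61, 1.40, 1.54 and 1.60 with the mutant in Cy3. The gap between its orientations gave a swap component of -0.67 ± 0.108 (adjusted p = 0.0271), next to a mean ratio of 0.87 ± 0.125 (0.0059), and both of its spots passed in each quantity. The other positive genes were Dnajc16 (0.86), Dnajc7 (0.81), which links Hsp70 and Hsp90, Dnajc8 (0.76), a factor of the spliceosome, Dnajc19, Dnajc6 (0.52) and Dnajc27 (0.49). Dnajc6 encodes the neuronal auxilin that uncoats clathrin vesicles. It missed the threshold without mouse 1 (0.49), mouse 2 (0.53) or mouse 3 (0.45), and with the deposited medians left in (0.36) or equal spread (0.44), and its 3 spots stood at 0.96, 0.68 and -0.08. Dnajc27 missed it without any one of mice 1 to 4 (0.41 to 0.53).

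Besides Dnajb11, the negative genes were Dnajb13, Dnajc5b and Dnajb3. Dnajb13, a component of sperm flagella and motile cilia, had -0.81, -1.08, -1.04 and -0.75 with the mutant in Cy5, and -2.44, -1.24, -1.33 and -1.98 with the mutant in Cy3. All values were below 0, and those with the mutant in Cy5 lay above all the others, with a mean ratio of -1.33 ± 0.135 (adjusted p = 0.00487). Dnajc5b, a relative of cysteine string protein known from testis, had 0.00, -0.19, 0.09 and -0.34 with the mutant in Cy5, and -1.41, -1.40, -0.71 and -1.03 with the mutant in Cy3. Its swap component of 0.51 ± 0.114 (adjusted p = 0.0468) was the 1 positive call, beside a mean ratio of -0.62 ± 0.135 (0.0172) that missed the threshold without mouse 2 (-0.57) or mouse 4 (-0.60). It reached -0.25 (adjusted p = 0.284) with runs of 48 spots centred. Dnajb3, also of testis, had -0.55 ± 0.158 (adjusted p = 0.0424) and missed the threshold without mouse 2 (-0.52), mouse 3 (-0.41) or mouse 4 (-0.59). Without intensities, how far the spots of such testis genes lay above background cannot be told.

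Dnajc5, cysteine string protein itself, keeps SNARE proteins of synaptic vesicles folded. Its 3 spots had mean ratios of 0.41, 0.14 and -0.49, none past the threshold, and 1 a swap component of -0.66 (adjusted p = 0.0487). Dnajb1, the heat-inducible partner of Hsp70, had -0.08, -0.43, -1.04 and -1.0 with the mutant in Cy5, and 0.38, 0.08, -0.48 and -0.41 with the mutant in Cy3. Its mean ratio was -0.37 ± 0.189 (adjusted p = 0.176), and -0.53 (0.0449) with the deposited medians left in. Dnajb6, which suppresses the aggregation of polyglutamine proteins, was read by 5 spots between -0.51 and 0.76. One of them passed in the mean ratio (0.76, adjusted p = 0.011), with a swap component of -0.59, and another had a swap component of 0.82 (0.0383). Without spots at whole-number ratios the gene passed at 0.49. Dnajb8 showed the widest disagreement. Spot 8171 had 0.22, -0.32, 0.64 and 0.29 with the mutant in Cy5, and 1.94, 2.03, 2.10 and 2.22 with the mutant in Cy3, and spot 11433 had -0.49, -0.10, -1.32 and -1.20 and -0.78, -0.36, -1.98 and -1.38. Both passed, at 1.14 ± 0.147 and -0.95 ± 0.257 (adjusted p = 0.00592 and 0.0339), so the gene's mean of 0.09 describes neither.

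CCT, the cytosolic chaperonin of actin and tubulin, is a ring of related but different subunits, and these did not share one ratio. Of 9 genes, 3 were positive and 1 negative, beside 20.6% and 12.4% of all genes. Cct5 had 0.21, 0.93, 0.22 and 0.61 with the mutant in Cy5, and 1.15, 1.54, 1.82 and 0.94 with the mutant in Cy3. Cct7 had 0.41, 0.22, 0.23 and 0.33 with the mutant in Cy5, and 1.0, 1.40, 1.58 and 1.25 with the mutant in Cy3. Cct2 had 0.05, -0.08, 0.26 and 0.46 with the mutant in Cy5, and 1.38, 1.38, 1.49 and 1.31 with the mutant in Cy3. In all 3 the arrays with the mutant in Cy5 were the lower ones without overlap. Their mean ratios were 0.93 ± 0.142, 0.80 ± 0.116 and 0.78 ± 0.119 (adjusted p = 0.00672, 0.00591 and 0.00655). Cct7 and Cct2 also passed in the swap component (-0.50 and -0.61, adjusted p = 0.0472 and 0.0299). Cct2 missed the threshold of the mean ratio with runs of 48 spots centred (0.43, adjusted p = 0.0587).

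The other subunits lay lower. Cct3 reached 0.46 ± 0.145 (adjusted p = 0.0539; 0.64 and past the threshold with runs centred), Cct8 0.17, Cct6a -0.06 and Cct4 -0.20 ± 0.121 (0.237). Cct4 had -1.23, -0.50, -0.52 and -0.51 with the mutant in Cy5, and 0.56, 0.25, 0.38 and -0.06 with the mutant in Cy3, so its orientations were apart by as much as those of Cct7 while its mean lay below 0. In 6 of the 9 genes every array with the mutant in Cy5 was below every array with the mutant in Cy3, as in 17.7% of all named genes. Cct6b, the testis form of subunit 6, had 0.07 over 3 spots at 0.58, 0.04 and -0.40. Cct8l1, a relative of Cct8, had the most negative mean ratio of all chaperones. Its values were -2.86, -1.66, -2.14 and -0.80 with the mutant in Cy5, and -1.46, -1.12, -2.30 and -1.70 with the mutant in Cy3. They overlapped, at -1.76 ± 0.21 (adjusted p = 0.00487), rank 8089 of 8107 genes from the top. The gene rests on 1 spot, which held 1 whole-number ratio, and it has no value without such spots. Of 11 prefoldins and other tubulin and CCT helpers, 4 were positive and 1 negative, beside 20.6% and 12.4% of all genes. Tbca, a tubulin-folding cofactor, stood at 1.06 ± 0.146 and Vbp1, a prefoldin subunit, at 0.99 ± 0.124 (adjusted p = 0.00548 and 0.00505).

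**Figure D3:**
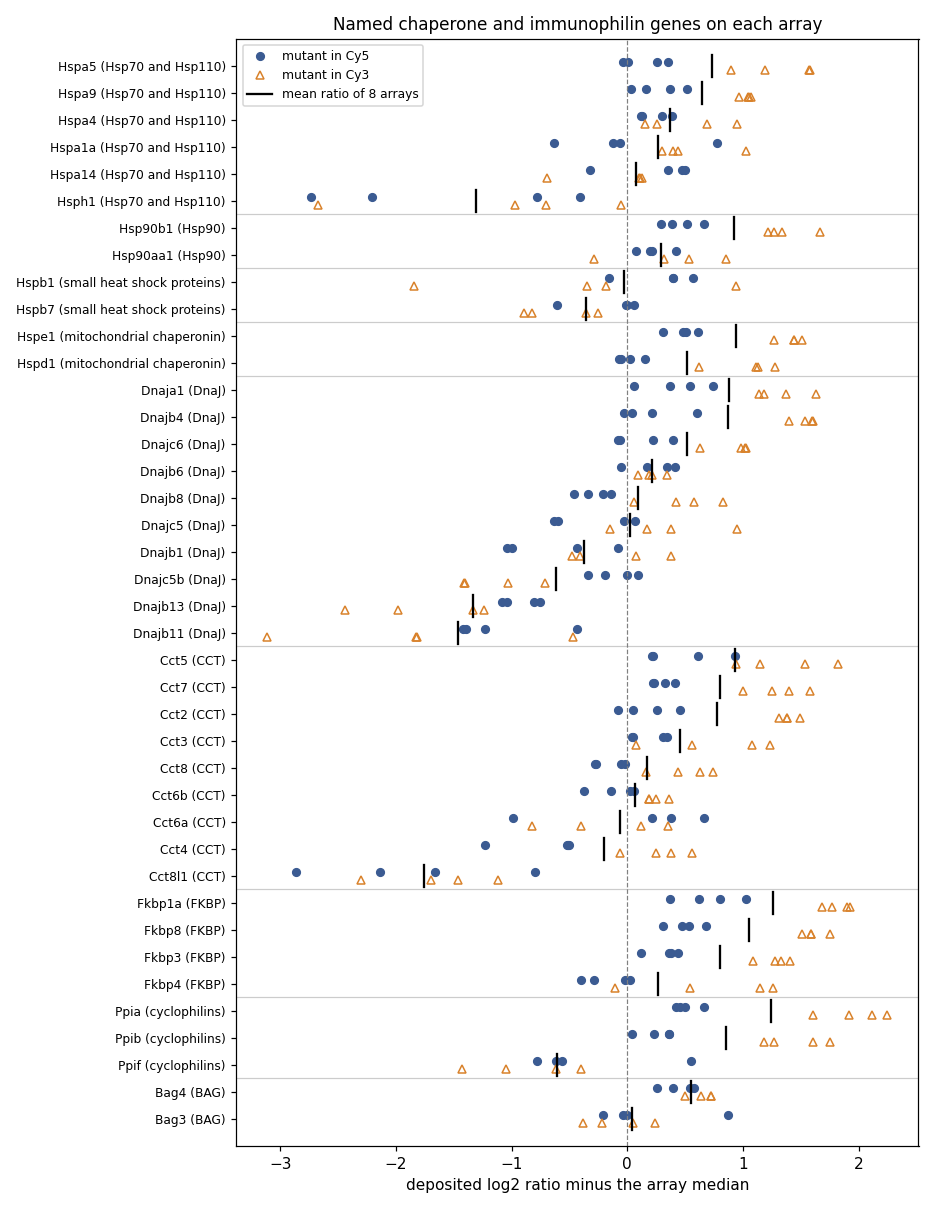
Values of the 40 genes named by rule on each array (deposited log2 ratio minus the array median), grouped by family. Filled circles are the 4 arrays with the mutant in Cy5, open triangles the 4 with the mutant in Cy3, and the black line the mean ratio; circles and triangles separate in genes such as Ppia, Fkbp8 and Cct2 and mix in Hsph1, Hspb1 and Cct8l1.

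Of 9 FKBP genes, 3 were positive and 6 did not pass, beside 20.6% positive and 12.4% negative of all genes. Fkbp1a had the highest mean ratio of the 73 genes. It encodes FKBP12, the tacrolimus receptor that also binds ryanodine receptors and type I TGF-beta receptors. Fkbp1a had 0.62, 0.37, 0.80 and 1.03 with the mutant in Cy5, and 1.68, 1.93, 1.90 and 1.77 with the mutant in Cy3. All 8 values were above 0 and the orientations did not overlap. The mean ratio of 1.26 ± 0.121 (adjusted p = 0.00487) ranked 9 of 8107 genes, its swap component was -0.56 ± 0.114 (0.0387), and both spots passed in the mean ratio (1.38 and 1.14). Fkbp8, a membrane-anchored FKBP of mitochondria that binds calmodulin and Bcl-2, had 0.68, 0.31, 0.47 and 0.53 with the mutant in Cy5, and 1.59, 1.59, 1.75 and 1.51 with the mutant in Cy3. That gave 1.05 ± 0.116 and a swap component of -0.56 ± 0.103 (adjusted p = 0.00487 and 0.0327). Fkbp3, the nuclear FKBP25, stood at 0.80 ± 0.115 and -0.48 ± 0.106 (adjusted p = 0.00581 and 0.0469), with both spots past the threshold of the mean ratio.

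Fkbp4, the Hsp90 co-chaperone FKBP52 that helps steroid receptors into the nucleus, did not pass at 0.27 ± 0.183 (adjusted p = 0.298). One of its spots stood at 0.64 (0.0164) and the other at -0.10. The FKBPs of the secretory pathway, Fkbp2, Fkbp9, Fkbp11 and Fkbp14, had mean ratios of 0.35, -0.01, -0.29 and 0.12 and did not pass. Fkbp14 rested on a value of 2.97 for mouse 4 with the mutant in Cy5, against -0.73 to 0.02 on the other arrays. Fkbpl stood at -0.09.

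Cyclophilins had 2 positive genes and 1 negative of 4, beside 20.6% and 12.4% of all genes. Ppia, cyclophilin A, the cyclosporin receptor of the cytosol, had 0.46, 0.42, 0.50 and 0.66 with the mutant in Cy5, and 1.61, 1.92, 2.25 and 2.12 with the mutant in Cy3. It was above 0 on all arrays with no overlap, at 1.24 ± 0.127 in the mean ratio (adjusted p = 0.00487, rank 19) and -0.73 ± 0.106 in the swap component (0.0271), the most negative among the 73 genes. Ppia has many processed pseudogenes, whose transcripts a cDNA probe would not separate. Ppib, the cyclophilin of the endoplasmic reticulum, had 0.04, 0.23, 0.36 and 0.36 with the mutant in Cy5, and 1.75, 1.61, 1.18 and 1.27 with the mutant in Cy3. The mean ratio was 0.85 ± 0.115 and the swap component -0.60 ± 0.121 (adjusted p = 0.00541 and 0.0375). A further spot of Ppib lacked a value on 1 array and had 3 at ratios of small whole numbers. With it the mean ratio was 0.34 and did not pass (adjusted p = 0.204). Ppif, cyclophilin D, which regulates the permeability pore of mitochondria, had -0.62, 0.55, -0.56 and -0.78 with the mutant in Cy5, and -1.43, -1.05, -0.40 and -0.62 with the mutant in Cy3. It was below 0 on 7 of 8 arrays at -0.61 ± 0.161 (adjusted p = 0.0318), and missed the threshold without mouse 1 (-0.48), mouse 3 (-0.66) or mouse 4 (-0.58), with equal spread (-0.54) or with runs centred (-0.58). Ppie, a spliceosomal cyclophilin, stood at 0.15.

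Of 14 measured partners of immunophilins, 3 were positive and 3 negative, beside 20.6% and 12.4% of all genes, with a median of -0.06 (0.02 over all genes). Calcineurin is the phosphatase that both drug complexes inhibit. Its catalytic subunit Ppp3cb stood at 1.07 ± 0.141 in the mean ratio, while Ppp3r2, the testis form of the regulatory subunit, stood at -1.06 ± 0.115 (adjusted p = 0.00527 and 0.00487). Its other negative members were Ppp3cc (-1.03 ± 0.175, adjusted p = 0.00869), a catalytic subunit known from testis, and Ppp3r1 (-0.63 ± 0.18, 0.0407), the general regulatory subunit. The glucocorticoid receptor Nr3c1, a client of Hsp90 and Fkbp4, had 0.56 ± 0.145 (adjusted p = 0.0299). Of 2 other peptidyl-prolyl isomerases measured, none passed (medians 0.02 in the mean ratio and -0.09 in the swap component).

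BAG proteins, which release nucleotide and client from Hsp70, had 1 gene of 5 past the threshold, beside 33.0% of all genes. Bag4 had 0.26, 0.40, 0.54 and 0.58 with the mutant in Cy5, and 0.72, 0.50, 0.64 and 0.72 with the mutant in Cy3. The orientations overlapped slightly, and both spots passed on their own (0.57 and 0.52). The mean ratio was 0.55 ± 0.117 (adjusted p = 0.0166), lost without mouse 2 (0.58), mouse 3 (0.53) or mouse 4 (0.51) and with the deposited medians left in (0.38), and the swap component was -0.10. Bag3, which heat shock factor induces and which sends aggregates to autophagy, stood at 0.04 ± 0.144 (adjusted p = 0.852). Bag1, Bag2 and Bag6 stood at -0.06, 0.14 and -0.39. Among co-chaperones of Hsp70 and Hsp90 and heat shock factors, 5 of 17 measured genes were positive and 0 negative, beside 20.6% and 12.4% of all genes. The Hsp70-interacting protein St13 had 0.75 ± 0.117 and Hsbp1, a small protein that binds heat shock factor 1, had 0.68 ± 0.124 (adjusted p = 0.0069 and 0.0106).

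Spots of one gene often disagreed. Of 32 genes with 2 or more measured spots (75 in all), 7 had every spot past the threshold of the mean ratio, 13 some and 12 none, and 14 had spots of opposite sign. The same counts over all genes with several spots are not given here, so they do not set chaperones apart from other genes. On single spots, 38 of 116 were positive and 9 negative past the threshold (20.1% and 14.6% of 18797 spots). In the swap component 3 were positive and 21 negative (1.41% and 6.43% of all spots). The median distance between the lowest and the highest spot of a gene was 0.43. Between the first 2 spots of a gene, Spearman's rho over these 32 genes was 0.367 in the mean ratio and 0.0762 in the swap component, beside 0.28 and 0.268 over 2256 genes. These values describe genes on shared arrays. The 7 genes with every spot past it were Fkbp1a, Dnajb4, Dnajc7, Fkbp3, Dnajc8 and Bag4, positive in all their spots, and Dnajb8 with its opposite signs.

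**Figure D4:**
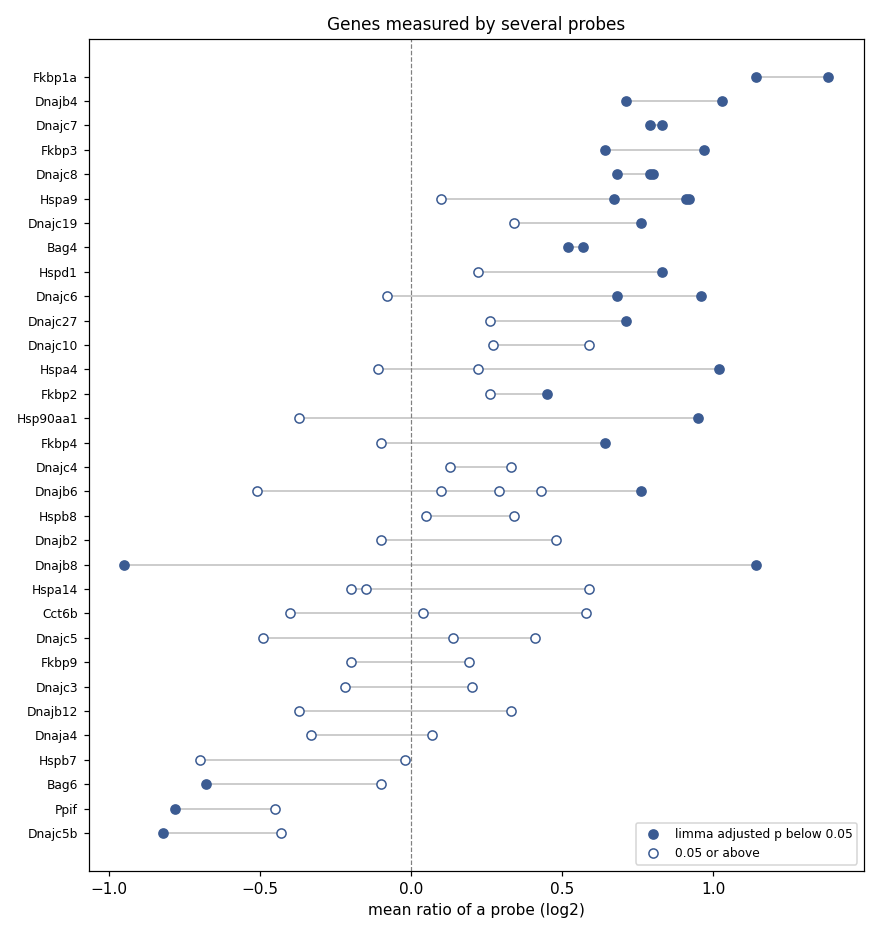
Mean ratio (log2) of each spot for the 32 genes with 2 or more measured spots, ordered by the gene's mean. Filled circles passed the limma threshold over all spots and open circles did not; the spots of Fkbp1a, Dnajb4, Dnajc7, Fkbp3, Dnajc8 and Bag4 lie together at positive values, while the pairs of Dnajb8 and Hsp90aa1 lie on both sides of 0.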

How the data were processed

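Per the labels, total brain RNA purified on columns was turned into Cy3 or Cy5 cDNA by indirect labelling, and pairs were hybridised to spotted cDNA arrays. The authors deposited log2 ratios for 20794 spots on 8 arrays. That scale was inferred from the values; the scanner, the background correction, any normalisation or centring and the numerator are not stated there, nor slides or scan dates. For mice 1 to 4, array medians were -0.147, -0.034, -0.0045 and -0.033 with the mutant in Cy5 and -0.571, -0.283, -0.134 and -0.085 with the mutant in Cy3. Each array held 20211 to 20559 usable values, after a code for an empty denominator (1 to 30 per array) was set to missing. For the search of whole-number ratios a constant was first subtracted from each array. It was the array's largest deposited value minus log2 of 100000 (-0.468 to 0.705). The precision rests on 4 mice, each with 2 arrays. Arrays of one orientation correlated at r = 0.224 to 0.43 (Cy5) and 0.459 to 0.68 (Cy3) over 18797 spots with 8 values.

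Medians were subtracted, spots of a gene averaged, and limma 3.58.1 (R 4.3.3; lmFit, eBayes, intercept only) fitted 4 mouse values per gene. It was first tried on simulated data of independent normal values with planted changes. Those data held no dye effect and no shared pool, so they say nothing about either. Spots were named from the platform annotation at a shift of 11, for annotation numbers up to 20000, with symbols from RefSeq; with no shift, rho between 2 spots of a gene was 0.0117. The members and lists were chosen with earlier results of these data known. Genes named by rule were a set of well-known chaperones and every Cct gene, up to 3 per family by mean ratio and 2 by swap component among those past the threshold, the largest where none passed, members with spots of opposite sign and one past the threshold, and every Adarb1 spot. Further lists gave up to 2 genes each. Other members were named after their values were seen. Hspa2, Hspa8, Hsp90ab1 and Fkbp5 were not analysed here. Alternatives changed the scaling, centring, missing values, weak spots, naming, spot level, orientation and mice.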

Additional observations from a re-analysis of the deposited data

Results flagged for a closer look

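Among 80 sets of 4 mouse values examined for the genes named by rule, 4 held 1 mouse set apart from the other 3, with a gap to its neighbour above Dixon's critical share of the range; chance gives about 1 in 20. In the mean ratio, Hspa14 stood at -0.51 in mouse 1 against 0.23 to 0.30 in the others, and Hspa1a at 0.54 in mouse 4 against 0.14 to 0.20. In the swap component, Bag4 stood at -0.23 in mouse 1 against -0.07 to -0.05, and Hspd1 at -0.24 in mouse 4 against -0.63 to -0.58.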

How the results depend on the processing

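The count of genes past the threshold in the mean ratio was 29. It lay between 21 and 24 when any one mouse was left out, and between 25 and 33 under the deposited medians, equal spread, runs of 48 spots centred, a value in every mouse, no spots at whole-number ratios, the mutant in Cy3 alone and 8 arrays with the mouse as a random effect. There a value in every mouse gave 27 of 76 genes and no spots at whole-number ratios 30 of 58, and the other counts are of 73. It was 0 with the mutant in Cy5 alone, 19 of 70 genes with names at no shift and 47 of 116 on single spots (20.1% of all spots positive and 14.6% negative). Over all genes, 33.0% passed in the main setting and with the deposited medians, and 33.7% with the mutant in Cy3 alone. Shares over all genes at no shift, without a mouse and in the remaining settings of the mean ratio are not given here. The fit of 8 arrays had no term for the dye, and its estimated correlation between the arrays of a mouse was negative (-0.167). Of the 29 genes, 20 kept the call without each of the mice, and the share of all called genes that did so is not given here. The count in the swap component was 13. It was 2 with medians left in (3.53% of all genes), 0 with equal spread and 4 with runs centred (4.88%). On single spots it was 24 of 116 (1.41% of all spots positive and 6.43% negative). With names at no shift it was 2, and without whole-number spots 20 of 58 genes. Shares over all genes in these last settings are not given here, so the counts say nothing particular to chaperones. Without a mouse it was 0 to 0, where no gene of all 8107 passed either. The same held with equal spread and, in the mean ratio, with the mutant in Cy5 alone. The cause was not tested. Dnajb8 turned to -0.95 without whole-number spots, which leaves 1 of its 2 spots. Without intensities, another background correction or dye normalisation was not run. The swap component pairs the arrays of each mouse, and no group of other mice was there to pair.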
